A study of Danio rerio with 61 samples.

Results

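The genes described here are 10 chemokines and chemokine receptors of the zebrafish heart: the ligands cxcl8a, cxcl8b.1, cxcl18b, cxcl12a, cxcl12b, cxcl14 and ccl19a.1, the receptors cxcr4a and cxcr4b, and the scavenger receptor ackr3b. They were taken by symbol from a table of 32520 genes, and all 10 were found there. All 10 were also among the 16890 genes that were tested, those whose count scaled to library size (CPM) reached 1 in any library.

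Chemokines are small secreted proteins that direct the migration of cells by binding receptors of the G-protein-coupled family. The Cxcl8 ligands draw neutrophils to damaged tissue through Cxcr1 and Cxcr2, and Cxcl18 is a fish ligand that also attracts neutrophils in zebrafish larvae. Cxcl12 signals through Cxcr4 and guides germ cells, the lateral line and growing vessels, including the coronary vessels of the zebrafish heart. Ackr3 takes up Cxcl12 from its surroundings and so shapes the gradient that Cxcr4 reads.

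The libraries came from single ventricles of adult fish of 7 wild-type strains: AB, the in-house KCL (Kings College London), NA (Nadia), SAT (Sanger AB Tübingen), TL (Tupfel long fin), TU (Tübingen) and WIK (Wild India Kolkata). The labels name wild-type strains with no transgene or engineered allele, and give neither age nor sex. Injured fish had the tip of the ventricle frozen with a metal probe cooled in liquid nitrogen and were sampled 1 or 7 days post cryo-injury (dpci). The control group was uninjured, so opening the chest was not matched in it. Each of the 21 groups of strain and stage held 3 fish, apart from SAT and TU at 1 dpci with 2, which gave 21 uninjured, 19 1 dpci and 21 7 dpci libraries.

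The RNA was read by a 3′ method in which a transcript gives about 1 read whatever its length. Libraries held 2943684 to 5538019 counts (median 3843819), of which 44.2% to 77.7% fell on mitochondrially encoded genes, and 1 count was worth 0.148 to 0.383 CPM after scaling. The title and the time label of 6 libraries differ, and the title was used. These are SAT fish 3 and TU fish 1 of the uninjured hearts. The others are TL fish 41 and WIK fish 55 at 1 dpci, and SAT fish 38 and TU fish 49 at 7 dpci. Each of the 6 uninjured hearts named NA or TU was closer at 7 dpci to TU or NA hearts, respectively, than to hearts of its own name, whereas the 15 uninjured hearts of the remaining strains were each closest to their own. Averages over the 7 strains are the same if these names were exchanged, but a change within NA or TU is not. The summed level of ventricular cardiomyocyte markers had a median of 22300 CPM in uninjured, 14000 CPM in 1 dpci and 18300 CPM in 7 dpci hearts. The median log2 fold change of these markers at 1 dpci was -0.76. None of them was called, which needs a change above 2-fold as well as an adjusted p below 0.05.

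Across the 7 strains, 4 of the 10 genes rose by more than 2-fold at 1 dpci, namely cxcl8a, cxcl8b.1, cxcl18b and cxcl12b. At 7 dpci, cxcl12a and cxcr4b were more than 2-fold above uninjured hearts. Between 1 and 7 dpci, cxcl14 rose and cxcl18b fell. Of all genes tested, 8.52% rose and 2.37% fell in the first comparison, 2.59% rose and 0.13% fell in the second, and 2.66% rose and 4.78% fell in the third. The median log2 fold change of the 10 genes was 0.84, 0.47 and -0.42 in these comparisons, against 0.07, 0.03 and -0.01 for all genes tested. Calls required more than a 2-fold difference and, in edgeR's quasi-likelihood test, an adjusted p below 0.05, with p-values adjusted over all genes tested. The calls at 1 dpci depend on the correction used. In a DESeq2 fit with 1 RUVg factor, the correction used in the study's own processing, 0 of the 10 genes were called at 1 dpci (0 also at an unadjusted p below 0.05; 4 with DESeq2 without the factor), 1 (cxcl12a) at 7 dpci and 1 (cxcr4b) between 1 and 7 dpci. In that fit 77.2% of the variance of the factor lay between the stages. The share of all genes called in that fit is not given, so whether the loss of calls is particular to these 10 genes cannot be told.

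**Figure D1:**
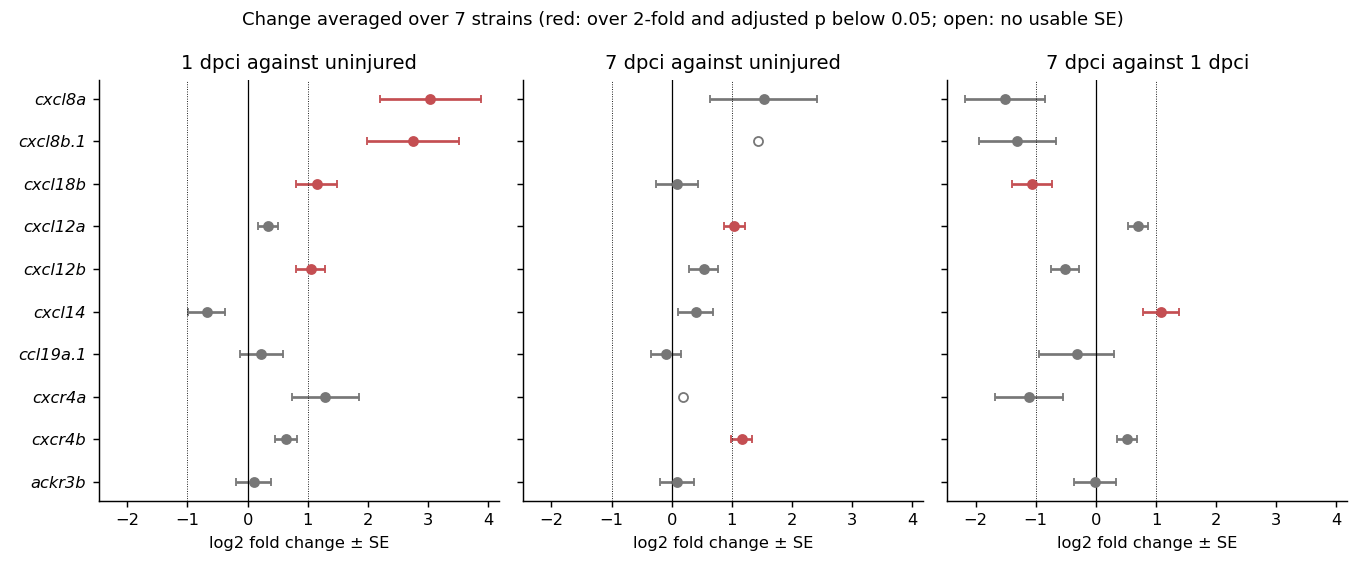
Log2 fold change of each of the 10 genes, averaged over the 7 strains, in the 3 stage comparisons (horizontal axis; bars are standard errors). Red points passed both thresholds, and open points have no usable standard error; 4 genes are called at 1 dpci, 2 at 7 dpci against uninjured and 2 between 1 and 7 dpci.

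The Cxcl8 ligands were nearly silent in uninjured hearts and were read mostly at 1 dpci. cxcl8a (chr1:14253118-14254166, plus strand, GRCz11) gave 32 counts in all uninjured libraries together, 296 at 1 dpci and 48 at 7 dpci. It was above 0 in 5 of 21 uninjured, 15 of 19 1 dpci and 12 of 21 7 dpci hearts. TL hearts at 1 dpci gave 116, 1 and 73 counts, or 17.2, 0.206 and 11.9 CPM, so the fish of this strain were far apart. KCL hearts at 1 dpci gave 8, 15 and 32 counts, all above the 0, 0 and 1 counts of uninjured KCL hearts. AB went the other way: an uninjured heart with 24 counts (fish 7) stood beside others with 0 and 2, and the AB hearts at 1 dpci gave 4, 3 and 24 counts. The groups therefore did not overlap in KCL, while in AB and TL they did.

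Averaged over the strains, cxcl8a rose at 1 dpci by 3.04 on the log2 scale (SE 0.84, adjusted p = 0.0043), a fold of 8.22, with a higher group mean in 6 of 7 strains, all except AB. Summed counts gave a ratio of 6.71 (95% counting interval 4.65 to 10). This and the other intervals cover counting error only. By the same measure the ratio was 40.4 in KCL (6.95 to 1620), 29.9 in TL (11.5 to 111) and 0.709 in AB (0.407 to 1.24). WIK had 8 counts against 0. With the 0 set to 3 counts its ratio was 1.57, a value without a counting interval. The fitted fold rests in part on 3 uninjured groups (SAT, TU and WIK) at 0 counts, so its size depends on how the fit treats a 0. The averaged contrast gave no usable p (adjusted p = 1) without NA 1 dpci fish 28 or SAT 1 dpci fish 37, each the only heart of its group with a count. An additive fit of strain and stage, which does not need counts in every group, gave 2.34 (adjusted p = 0.0014) for the rise and -1.74 (adjusted p = 0.014) for the difference between 7 and 1 dpci. That difference was -1.51 in the fit of all groups (adjusted p = 0.097), and with the RUVg factor the log2 fold change at 1 dpci was 0.06.

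cxcl8b.1 (chr7:7839612-7845540, minus strand) followed with fewer counts, 7 in uninjured hearts, 76 at 1 dpci and 27 at 7 dpci. It was above 0 in 5 of 21, 14 of 19 and 8 of 21 hearts. WIK hearts at 1 dpci held the highest level, with 9, 0 and 17 counts (1.55, 0 and 2.92 CPM), against 1, 0 and 0 counts in uninjured WIK hearts. Both SAT hearts at 1 dpci were above 0, with 5 and 6 counts, while all 3 uninjured SAT hearts were at 0. Averaged over the strains it rose by 2.75 at 1 dpci (SE 0.76, adjusted p = 0.0043), a fold of 6.74, with 6 of 7 strains higher and NA the exception. Here too 3 uninjured groups (KCL, SAT and TL) were at 0 counts. The summed counts gave a ratio of 7.88 (3.65 to 20.3). KCL had 14 counts against 0, SAT 11 against 0 and TL 8 against 0. With each 0 set to 3 counts the ratios were 3.42, 4 and 1.68, again without a counting interval. The call ended without NA 1 dpci fish 29, the only heart of that group above 0 counts (adjusted p = 1). At 7 dpci the additive fit gave 1.41 above uninjured (adjusted p = 0.27). How reads shared with near copies, such as cxcl8b.3, were counted is not given in the sources used here, so the counts of cxcl8b.1 are less certain for that reason.

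**Figure D2:**
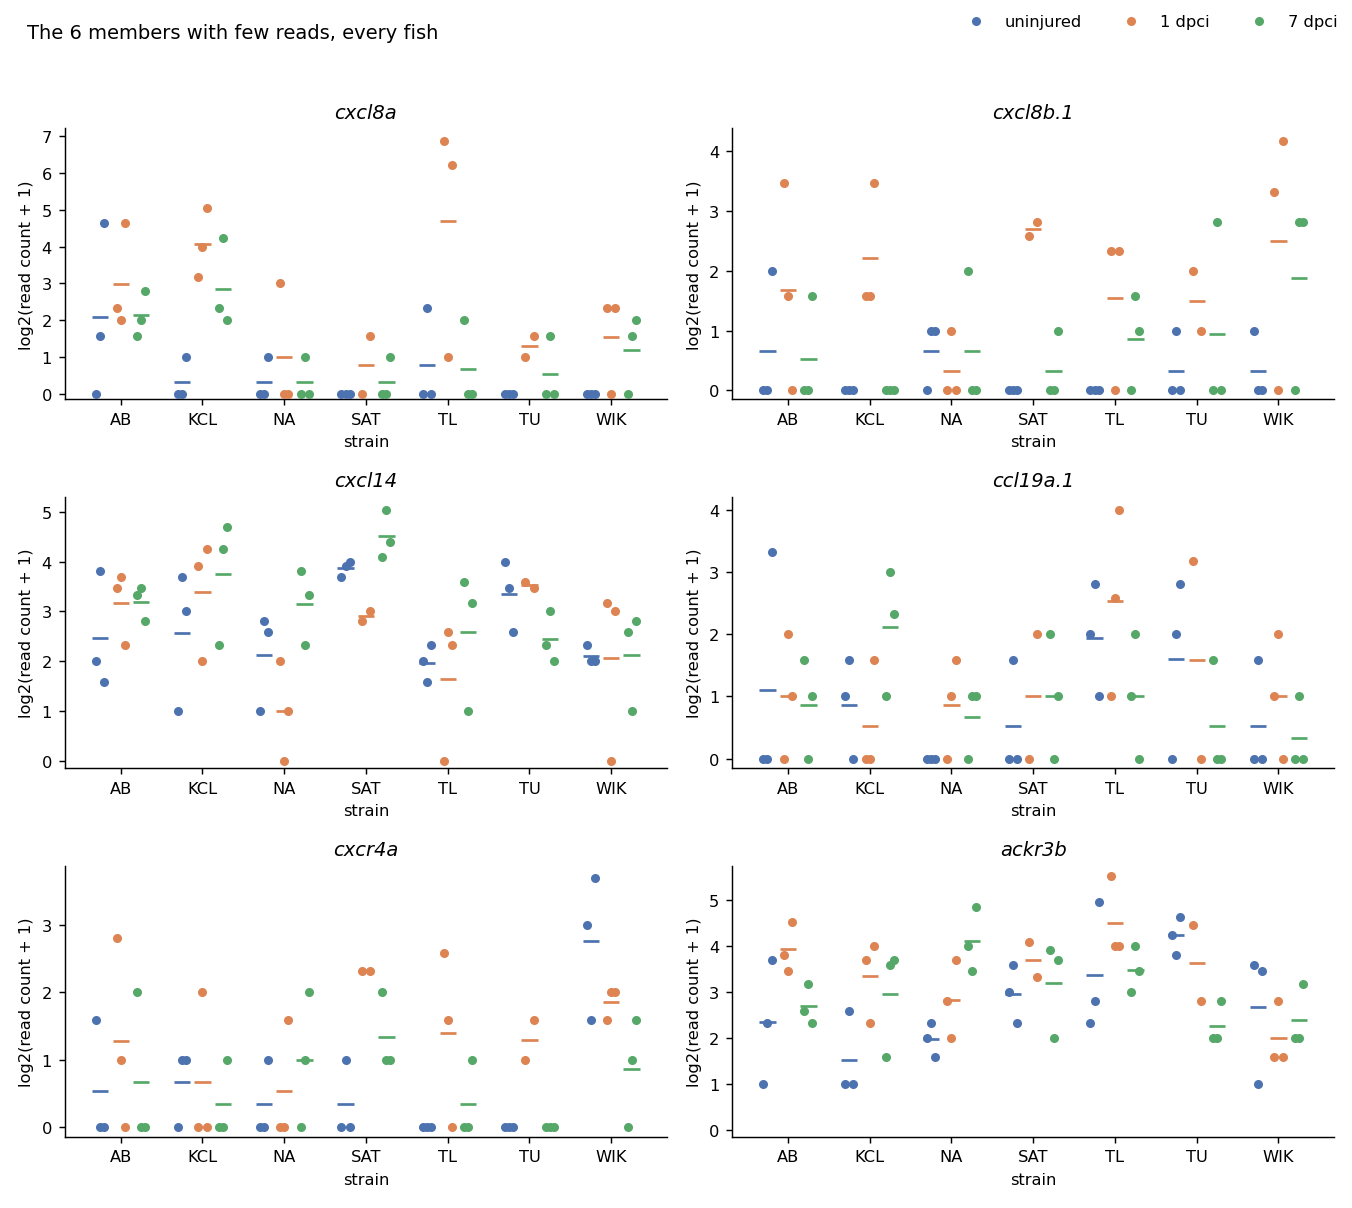
Read counts of the 6 low genes in every heart, as log2(count + 1), by strain and stage; each point is 1 fish. The counts of cxcl8a and cxcl8b.1 are mostly at 0 before injury and highest at 1 dpci, and the counts of cxcr4a before injury lie mostly in WIK (7, 2 and 12 counts).

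cxcl18b (chr1:49222164-49225890, minus strand) was read in every heart and rose at 1 dpci. Uninjured hearts ranged from 0.804 to 176 CPM with a median of 5.23 CPM, 1 dpci hearts from 7.19 to 70.1 with a median of 16.5, and 7 dpci hearts from 2.25 to 84.2 with a median of 6.72. The top of the first and last ranges was 1 heart each. The uninjured AB hearts gave 2.94, 6.11 and 176 CPM (fish 7), and the WIK hearts at 7 dpci gave 6.23, 84.2 (fish 60) and 7.26 CPM. At 1 dpci TL was highest, at 44.7, 14.4 and 70.1 CPM, and NA lowest, at 7.68, 7.82 and 7.55 CPM. The 3 NA hearts lay below both TU hearts (16.5 and 12.2 CPM), the neighbours above them in the order of strains, and the other neighbouring strains overlapped.

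The rise of cxcl18b at 1 dpci was 1.15 on the log2 scale (SE 0.34, adjusted p = 0.006), a fold of 2.23, with AB the only strain not higher. The fall from 1 to 7 dpci was -1.06 (SE 0.33, adjusted p = 0.013), with 5 of 7 strains lower. Without AB uninjured fish 7 the rise was 1.68, and across single fish left out it was 1.01 to 1.68 with adjusted p of at most 0.017. The fall dropped under 2-fold in 6 of 40 such fits, to -0.92, and gave -0.97 (adjusted p = 0.053) without the 6 libraries whose labels differ. The additive fit gave 0.99 for the rise (adjusted p = 0.077) and -0.84 for the fall (adjusted p = 0.15), and the fit with the RUVg factor turned both around, to -1.57 (adjusted p = 0.44) and 1.13 (adjusted p = 0.55).

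Neutrophil markers, like these ligands, had their highest median at 1 dpci. The summed level of mpx, lyz, npsn, lect2l, mmp9 and mmp13a (6 of the 7 listed genes were found in the table, mmp13a in 2 rows) had a median of 3.18 CPM in uninjured hearts (0.683 to 77.2), 21.8 at 1 dpci (8.52 to 110) and 6.91 at 7 dpci (0 to 214). Of these 7 rows, 6 rose at 1 dpci and 4 fell between 1 and 7 dpci. Among these genes mmp13a had the highest mean in uninjured (5.04 CPM) and 1 dpci hearts (13.2 CPM). It is also among the 3 genes most like cxcl18b over the 61 libraries (r = 0.763), so the sum is weighted by a gene that tracks cxcl18b. The single hearts that stood out for cxcl18b stood out here too: uninjured AB hearts summed to 0.734, 0.964 and 77.2 CPM (fish 7), and WIK hearts at 7 dpci to 5.5, 214 (fish 60) and 7.81 CPM. Uninjured KCL hearts summed to 3.06, 1.08 and 35.9 CPM (fish 3), and cxcl18b was 4.59, 6.18 and 16.8 CPM in the same fish. Not every heart followed this pattern. WIK 1 dpci fish 57 summed to 110 CPM and KCL 1 dpci fish 63 to 96.6 CPM. Their cxcl18b, at 18.2 and 18.8 CPM, was near the 1 dpci median of 16.5 CPM. TL 1 dpci fish 41, the highest heart for cxcl8a at 17.2 CPM, summed to 21.8 CPM. WIK 7 dpci fish 60 had 2 counts of cxcl8a. Macrophage markers rose as well, 7 of 7 at 1 dpci, from a median sum of 22.8 CPM (13.1 to 152) to 119 CPM (32.1 to 472). The part of these markers in the rise of the ligands was not tested, and in whole ventricles more cells of a type cannot be told apart from more RNA per cell.

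**Figure D3:**
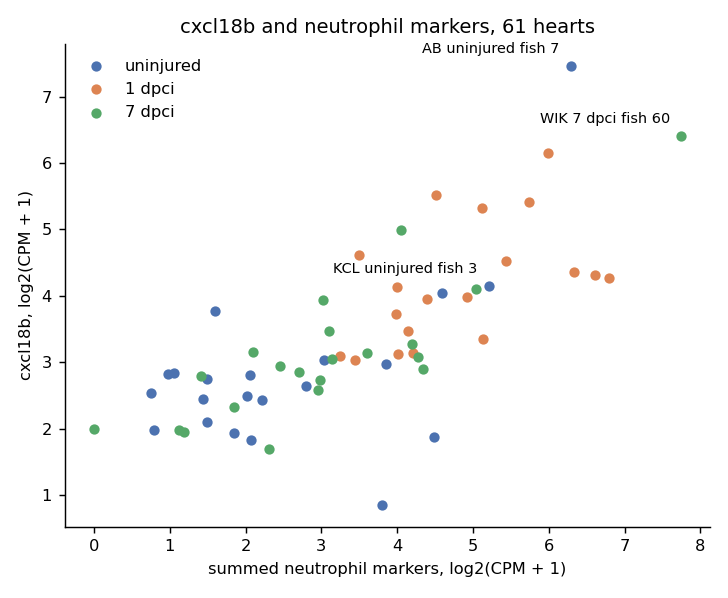
Level of cxcl18b against the summed level of the neutrophil markers in each of the 61 hearts, both as log2(CPM + 1) and coloured by stage. AB uninjured fish 7 (176 and 77.2 CPM) and WIK 7 dpci fish 60 (84.2 and 214 CPM) lie with or above the 1 dpci hearts on both axes.

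The 2 Cxcl12 genes were called at different stages against uninjured hearts, cxcl12b at 1 dpci and cxcl12a at 7 dpci, and the difference between the genes was not tested. cxcl12a (chr13:30804367-30819715, plus strand) had medians of 21.1, 17.9 and 35.2 CPM in uninjured, 1 dpci and 7 dpci hearts, with ranges of 5.53 to 67.9, 3.79 to 69.1 and 16.7 to 95.6 CPM. At 1 dpci its log2 fold change was 0.34 (SE 0.17, adjusted p = 0.16). At 7 dpci it had risen by 1.04 above uninjured hearts (SE 0.17, adjusted p = 1e-05), a fold of 2.05, with 6 of 7 strains higher and NA the exception as labelled. The difference between 7 and 1 dpci, 0.7 (adjusted p = 0.0011), was under 2-fold. Left-out single fish moved the 7 dpci rise above uninjured hearts between 0.99 and 1.15, so that 3 of 42 fits fell just under 2-fold. For that rise the fit with the RUVg factor gave 1.09 (adjusted p = 4.3e-06).

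Strains differed in cxcl12a at every stage, the only one of the 10 genes called at all 3 (adjusted p = 0.00057 uninjured, 1.6e-05 at 1 dpci and 0.003 at 7 dpci). It passed in every fit that left out 1 fish. Of all genes tested, 13.1% differed among strains in uninjured, 11.4% in 1 dpci and 13.5% in 7 dpci hearts. WIK had the lowest mean at all stages. Its 1 dpci hearts gave 3.79, 5.33 and 6.01 CPM, below every other heart of that stage, where AB, the next strain, gave 14.1, 22 and 15.3 CPM. Against the mean of the other 6 strains WIK was lower by -2.56 (SE 0.42, adjusted p = 4.3e-05). From this low point WIK rose to 26.4, 22 and 16.7 CPM at 7 dpci (log2 fold change 2.1, SE 0.48, adjusted p = 0.016), a call lost in 3 of the 6 fits without 1 of its fish (adjusted p = 0.072 without fish 55, 0.057 without fish 57 and 0.068 without fish 58).

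The highest levels of cxcl12a at 7 dpci were in KCL (76, 61 and 80 CPM) and TU (49.4, 95.6 and 70.9 CPM), whose hearts all lay above the TL hearts (41.2, 47.6 and 20.2 CPM). Against the other 6 strains KCL was 1.1 (adjusted p = 0.033) and TU 1.09 (adjusted p = 0.023) higher. The first call ended when any 1 of its own fish was left out (adjusted p = 0.16 without fish 65, 0.093 without fish 66 and 0.2 without fish 67), and the second without fish 51 (0.86, adjusted p = 0.29) or fish 52 (adjusted p = 0.081). At 1 dpci TU hearts gave 37.4 and 69.1 CPM, which was 1.4 above the other strains (adjusted p = 0.012) but 0.9 without fish 54 (adjusted p = 0.71). Hearts labelled uninjured NA gave 42.2, 67.9 and 38.9 CPM, all above the next strain, SAT, at 25.8, 24.1 and 28.7 CPM (1.67 above the other 6, SE 0.3, adjusted p = 0.00028).

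The names of the uninjured NA and TU hearts bear on the changes within these strains. As labelled, the mean of cxcl12a went from 49.7 to 20.6 CPM at 1 dpci and 27.5 CPM at 7 dpci in NA, and from 14.7 to 53.2 and 71.9 CPM in TU. The tests gave -1.27 for NA at 1 dpci (adjusted p = 0.043), and 1.86 (adjusted p = 0.034) and 2.3 (adjusted p = 0.00086) for TU at 1 and 7 dpci. The NA call was lost in 5 of the 6 fits without 1 of its fish (adjusted p = 0.054 to 0.24) and the TU call at 1 dpci in 3 of 5 (0.16 without uninjured fish 1 or 2, and 0.46 without fish 54). With the names of the uninjured hearts exchanged, the 7 dpci mean would be the higher in both strains. KCL was the remaining strain with a call against uninjured hearts, from 22.3 ± 6.3 CPM (SD, n = 3) uninjured to 72.3 ± 10 CPM (SD, n = 3) at 7 dpci, a log2 fold change of 1.7 (SE 0.43, adjusted p = 0.028), which was lost in 5 of the 6 fits without 1 of its fish.

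cxcl12b (chr22:26929554-26945493, minus strand) had its highest median at 1 dpci. Its medians were 10.4 CPM in uninjured (0 to 42.5), 23.9 CPM in 1 dpci (9.59 to 41.9) and 16.9 CPM in 7 dpci hearts (4.02 to 31). The rise at 1 dpci was 1.05 (SE 0.24, adjusted p = 4e-04), a fold of 2.07, with 6 of 7 strains higher and NA the exception as labelled. With the names of the uninjured NA and TU hearts exchanged, TU would be the exception (30.1 CPM uninjured, 19.5 CPM at 1 dpci). TL showed the rise most evenly, with 5.01, 6.01 and 5.33 CPM before injury and 23.9, 22.9 and 14.9 CPM at 1 dpci. The AB hearts also did not overlap (5.14, 17.7 and 6.11 CPM against 26, 34.6 and 34.7 CPM). The rise stayed past the p threshold whichever fish was left out (adjusted p of at most 0.0025) but fell under 2-fold in 10 of 40 fits, to 0.93. At 7 dpci it was 0.53 above uninjured (adjusted p = 0.21), and the difference between 7 and 1 dpci did not pass either (-0.51, adjusted p = 0.1).

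A single uninjured heart decided much about cxcl12b in WIK. The uninjured WIK hearts gave 0, 21.3 (fish 2) and 0.706 CPM, or 0, 74 and 2 counts, and the first of these was the only library in the series with no count of this gene. WIK hearts at 1 dpci gave 24.5, 9.59 and 30.9 CPM. Without fish 2 the change within WIK at 1 dpci went from 1.49 (adjusted p = 0.17) to 5.79 (adjusted p = 0.00069), and the 7-strain change at 7 dpci to 1.16 (adjusted p = 0.0015). The difference among uninjured strains likewise went from an adjusted p of 0.05, short of the threshold, to 0.00015. Uninjured NA hearts were high for this gene as they were for cxcl12a, at 42.5, 25.6 and 22.2 CPM (1.68 above the other strains, adjusted p = 0.016; 0.25 without fish 1 and 0.061 without fish 2).

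**Figure D4:**
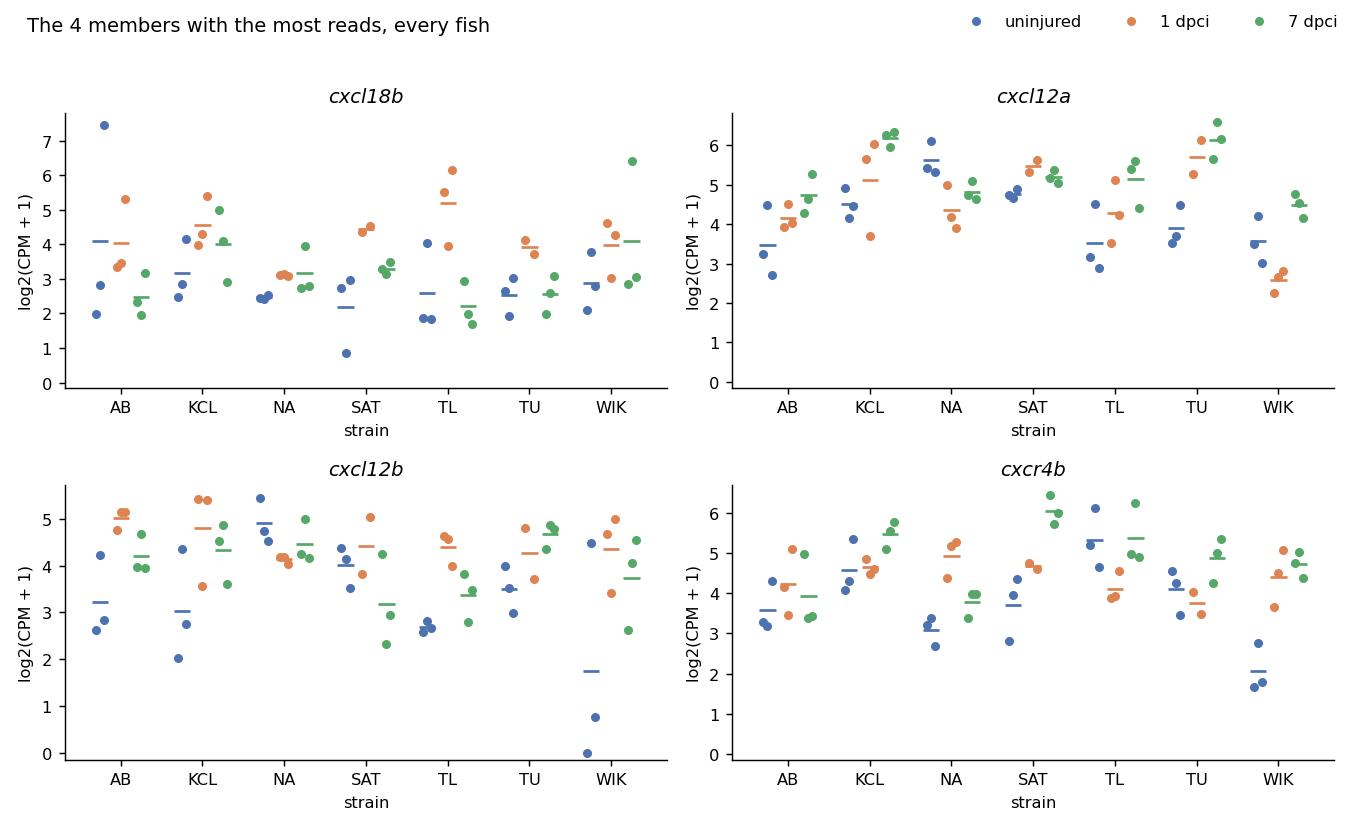
Levels of cxcl18b, cxcl12a, cxcl12b and cxcr4b in every heart as log2(CPM + 1), by strain and stage; points are fish and bars are group means. WIK hearts at 1 dpci (3.79, 5.33 and 6.01 CPM) are the lowest of that stage for cxcl12a, and WIK uninjured hearts (2.18, 5.75 and 2.47 CPM) are among the lowest for cxcr4b.

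cxcl14 (chr14:24400799-24410673, minus strand), a ligand that in mammals is made by many resting tissues, had 140 counts over all uninjured, 123 over all 1 dpci and 212 over all 7 dpci hearts. The medians were 1.45, 1.2 and 2.14 CPM, and the 3 libraries at 0 were all of the 1 dpci group. It rose between 1 and 7 dpci by 1.08 (SE 0.3, adjusted p = 0.0051), a fold of 2.11, with 6 of 7 strains higher and TU the exception. Within NA the counts went from 3, 0 and 1 at 1 dpci to 13, 4 and 9 at 7 dpci (2.88, SE 0.9, adjusted p = 0.043), a call that held only without fish 33 (adjusted p = 0.027) among the 6 fits without 1 NA fish. Neither change against uninjured hearts passed the test (-0.68, adjusted p = 0.1, and 0.4 in the average over strains). SAT had the highest mean at 7 dpci, with 3.56, 7.15 and 4.61 CPM, and in uninjured hearts, where 3.6, 3.75 and 4.48 CPM lay above the TU hearts (3.56, 2.17 and 1.29 CPM) that came next. The adjusted p of its rise was 0.012 in the additive fit, whose log2 value of 0.96 was under 2-fold, and with the RUVg factor the value was 0.13 (adjusted p = 0.98).

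ccl19a.1 (chr5:13353866-13392962, plus strand), a relative of the mammalian CCL19 that guides T cells and dendritic cells through CCR7, was at the edge of detection. It had 35, 45 and 28 counts over the uninjured, 1 dpci and 7 dpci hearts, and 26 of 61 libraries were at 0. The highest values were 15 counts in TL 1 dpci fish 43 and 9 counts in AB uninjured fish 7. The summed counts gave a ratio of 0.933 (0.587 to 1.5) at 1 dpci and 0.722 (0.423 to 1.22) at 7 dpci against uninjured hearts. No change was detectable at this depth. Markers of T and NK cells summed to at most 4.01 CPM and those of B cells to at most 1.43 CPM in any heart.

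Zebrafish carry 2 Cxcr4 receptors, and the levels of the pair differed by far. cxcr4a (chr6:12922002-12923727, plus strand) gave 82 counts over the 61 hearts and cxcr4b (chr9:10692905-10694930, plus strand) 6138. For cxcr4a 30 libraries were at 0, and the counts were 27 in uninjured, 38 in 1 dpci and 17 in 7 dpci hearts. The uninjured WIK hearts held 21 of the 27, at 7, 2 and 12 counts (2.54, 0.575 and 4.24 CPM), while no other uninjured heart had more than 2 counts. Against the other 6 strains this was 4.6 higher (SE 0.9, adjusted p = 0.00088; 0.035 without fish 3), although the difference over the 7 strains, at an adjusted p of 0.013, reached 0.13 without that fish. The uninjured TL and TU groups were at 0 counts, so the size of the 4.6 depends on how the fit treats a 0. WIK hearts gave 2, 3 and 3 counts at 1 dpci and 0, 1 and 2 at 7 dpci, ratios of 0.224 (counting interval 0.086 to 0.527) and 0.131 (0.025 to 0.438) of the summed counts. With the spread between fish taken in, neither change within WIK passed (-2.1, adjusted p = 0.42, and -2.94, adjusted p = 0.48). In the average over strains the change at 1 dpci was 1.29 (SE 0.56, adjusted p = 0.079), and in the additive fit 0.68 (adjusted p = 0.41). The size of the 1.29 also depends on how the fit treats a 0. Summed over all strains and scaled for depth, the counts gave a ratio of 1.02 (counting interval 0.608 to 1.74) at 1 dpci, so they showed no rise.

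cxcr4b was the only one of the 10 genes whose change after injury was called as differing among strains. Its medians were 14.5 CPM in uninjured (2.18 to 69), 21.8 CPM in 1 dpci (9.91 to 37.6) and 30.7 CPM in 7 dpci hearts (9.37 to 86.6). It rose by 0.64 at 1 dpci (SE 0.18, adjusted p = 0.0053), which was under 2-fold. At 7 dpci it was 1.16 above uninjured hearts (SE 0.18, adjusted p = 4e-06), a fold of 2.23, with all 7 strains higher as labelled. With the names of the uninjured NA and TU hearts exchanged, the NA mean would go from 17 CPM uninjured down to 13 CPM at 7 dpci. The 7 dpci rise kept its call in all 42 fits without 1 fish (1.05 to 1.26). With the RUVg factor it was 0.88 (adjusted p = 0.00025), while the value at 1 dpci turned to -0.79 (adjusted p = 0.48) and that from 1 to 7 dpci, 0.52 in the fit of all groups (adjusted p = 0.019), became 1.67 (adjusted p = 0.0011).

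The strains stood apart most in uninjured hearts. WIK gave 2.18, 5.75 and 2.47 CPM and TL 35.7, 69 and 24.1 CPM, so that the highest WIK heart was below the lowest TL heart. Against the other 6 strains WIK was -2.22 lower (SE 0.48, adjusted p = 0.0023) and TL 1.94 higher (SE 0.3, adjusted p = 1.3e-05), and both passed without any 1 of their own fish. At 1 dpci the order changed. WIK hearts reached 11.5, 21.8 and 33 CPM, and TL hearts were at 13.7, 14.2 and 22.4 CPM, so these strains overlapped and the difference among the 7 strains was not called, whereas it was in uninjured (adjusted p = 1.1e-05) and 7 dpci hearts (adjusted p = 0.00049). At 7 dpci SAT was highest, at 86.6, 52.1 and 62.9 CPM (1.35 above the other 6, SE 0.29, adjusted p = 0.0034; 0.12 without fish 38, whose labels differ), and NA was among the lowest, at 9.37, 14.8 and 14.7 CPM (-1.41, SE 0.37, adjusted p = 0.013). The NA call ended when any 1 of its fish was left out (adjusted p = 0.057 to 0.13).

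The change of cxcr4b at 1 dpci differed among AB, KCL, SAT, TL and WIK (F = 8.83, adjusted p = 0.021), where 0.107% of all genes tested passed. In WIK it rose by 2.62 (SE 0.54, adjusted p = 0.0012), and the hearts before and after did not overlap. In TL the value was -1.35 (SE 0.43, adjusted p = 0.089), with every 1 dpci heart below every uninjured heart. The 1 dpci groups of WIK and TL each hold a heart whose labels differ, WIK fish 55 and TL fish 41. AB, KCL and SAT lay between, at 0.73, -0.03 and 0.89. The adjusted p of the difference was 0.0081 to 0.13 when 1 fish was left out, and passed in 22 of 29 such fits, with the highest value without WIK uninjured fish 3. The other tests of differing change called none of the 10 genes with edgeR, either for 7 dpci against uninjured hearts (0.0651% of all genes passed, cxcr4b at adjusted p = 0.19) or for 7 against 1 dpci (0.0118% passed). At an unadjusted p below 0.05 these 2 tests held 2 and 3 of the 10 genes. The share of all genes at that threshold is not given, so these counts cannot be set against the shares above.

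At 7 dpci cxcr4b was above uninjured hearts by 2.84 in WIK (SE 0.54, adjusted p = 0.0022), where hearts reached 26, 31.8 and 19.8 CPM, and by 2.33 in SAT (SE 0.45, adjusted p = 0.0049), from 6, 14.5 and 19.4 CPM. The WIK call held in each fit without 1 of its fish. The SAT call ended without SAT uninjured fish 3, whose labels differ (1.99, adjusted p = 0.17). In TL the difference was 0.07, with 30.5, 75.1 and 28.9 CPM at 7 dpci. NA as labelled rose by 2 at 1 dpci (SE 0.49, adjusted p = 0.0034), from 8.23, 9.49 and 5.46 CPM to 19.8, 35.3 and 37.6 CPM. TU hearts at 1 dpci, at 15.4 and 10.1 CPM, overlapped with those labelled uninjured TU, at 22.6, 18.3 and 10 CPM.

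**Figure D5:**
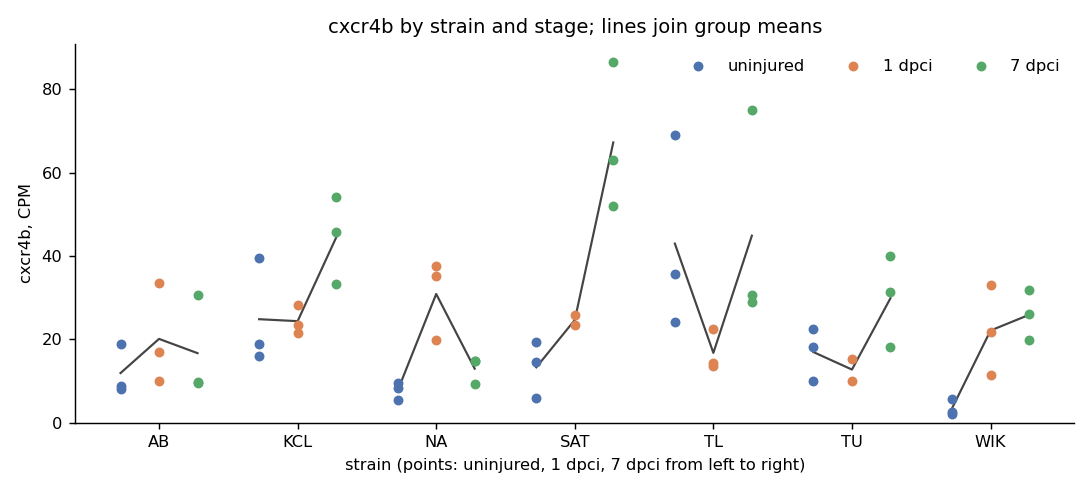
Level of cxcr4b in CPM (linear axis) in every heart, by strain, at the 3 stages. Points are fish, and lines join the group means of each strain. WIK goes from 2.18, 5.75 and 2.47 CPM before injury to 11.5, 21.8 and 33 CPM at 1 dpci, whereas TL goes from 35.7, 69 and 24.1 CPM to 13.7, 14.2 and 22.4 CPM.

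Markers of other cell types were also higher at 7 dpci, when cxcl12a and cxcr4b were high. Epicardial and fibroblast markers (tcf21, tbx18, wt1b, pdgfra, aldh1a2 and postnb) summed to a median of 71.3 CPM in uninjured (46.7 to 95.8), 108 CPM in 1 dpci (66.5 to 148) and 245 CPM in 7 dpci hearts (114 to 541), and 2 of the 6 were called above uninjured hearts at 7 dpci. Most of the 7 dpci sum was postnb, whose mean went from 16.2 to 176 CPM, while tbx18 went from 18.2 to 37.3, tcf21 from 4.67 to 7.86 and pdgfra from 11 to 12.2 CPM. The higher sum at 1 dpci lay mostly in aldh1a2, with means of 20.6 CPM uninjured, 64.4 CPM at 1 dpci and 33.3 CPM at 7 dpci. At 1 dpci the means of tcf21 (3.44 CPM), tbx18 (14.6 CPM) and postnb (9.47 CPM) were below uninjured hearts, and those of pdgfra (12.9 CPM) and wt1b (0.46 CPM) above. Macrophage markers were at a median of 76.2 CPM at 7 dpci, with 4 of 7 called. Endothelial and endocardial markers were at 137, 121 and 131 CPM and none was called. The part of these markers in the levels of cxcl12a and cxcr4b was not tested.

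ackr3b (chr6:15751982-15757867, minus strand) changed little on average. Its medians were 1.46, 2.32 and 2.21 CPM, with ranges of 0.287 to 6.4, 0.343 to 6.68 and 0.661 to 6.65 CPM and no library at 0. The log2 fold change was 0.1 at 1 dpci (SE 0.29, adjusted p = 1) and 0.09 at 7 dpci. Uninjured TU hearts were highest (4.28, 2.83 and 6.17 CPM) and uninjured KCL hearts lowest (0.383, 1.34 and 0.336 CPM), but no difference among strains was called at any stage. Its levels rest on 1 to 45 counts a heart, and these data set no narrow limit on a change within a strain.

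Counted over strains, the tests of 1 strain against the other 6 called 7 of 70 in uninjured, 3 of 70 in 1 dpci and 5 of 70 in 7 dpci hearts, where 2.46%, 2.23% and 2.3% of such tests over all genes were called. The calls in addition to those above were AB before injury for cxcl8a (5.09, adjusted p = 0.0032) and cxcl18b (3.36, adjusted p = 5e-05), TL at 1 dpci for cxcl8a (3.74, adjusted p = 0.00011) and WIK at 7 dpci for cxcl18b (2.19, adjusted p = 0.014). The size of the 5.09 depends on how the fit treats a 0, since uninjured SAT, TU and WIK were at 0 counts of cxcl8a. The AB calls rest on fish 7, without which the values were 2.24 (adjusted p = 0.76) and -0.39 (adjusted p = 1), and the WIK call on fish 60 (-0.09, adjusted p = 1, without it). The TL call held without any 1 of its fish (adjusted p of at most 0.026). The differences among the 7 strains that involve these hearts, cxcl8a (adjusted p = 0.022) and cxcl18b (adjusted p = 0.00038) in uninjured and cxcl18b (adjusted p = 0.039) in 7 dpci hearts, were likewise lost without them, at 0.68, 0.85 and 0.37. The differences in uninjured hearts each passed in 20 of 21 fits without 1 fish. That of cxcl18b at 7 dpci passed in only 9 of 21, so it was also lost without other single fish. For cxcl8a at 1 dpci the strains differed (adjusted p = 0.00068) in all 19 fits without 1 fish.

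Within single strains 6 of 70 tests were called for 1 dpci against uninjured, 5 of 70 for 7 dpci against uninjured and 4 of 70 for 7 against 1 dpci, against 4.16%, 1.23% and 2.1% over all genes. For cxcl8a the rises in KCL (4.92, SE 1.5, adjusted p = 0.046) and TL (4.64, SE 1.2, adjusted p = 0.024) and the fall in TL from 1 to 7 dpci (-4.97, adjusted p = 0.013) were called. The first was lost in 5 of the 6 fits without 1 fish of the groups compared, and the others in 4 of 6 each. TL also fell for cxcl18b between 1 and 7 dpci (-3.43, SE 0.91, adjusted p = 0.02), a call lost in 4 of 6 such fits (adjusted p = 0.15 without fish 43, 0.062 without fish 44, 0.097 without fish 45 and 0.1 without fish 46). The fall of cxcl18b in AB from uninjured to 7 dpci (-3.63, adjusted p = 0.037) was 0.14 (adjusted p = 1) without AB uninjured fish 7, and was also lost without any 1 of the 7 dpci fish (adjusted p = 0.09 to 0.25). The calls for cxcr4b in NA at 1 dpci and in WIK at both stages, and for cxcl12a in TU at 7 dpci, held whichever fish of the groups compared was left out. Leaving out single fish does not bear on the names of the uninjured NA and TU hearts. With these exchanged, uninjured cxcl12a in TU would average 49.7 CPM, against 71.9 CPM at 7 dpci. Uninjured cxcr4b in NA would average 17 CPM, against 30.9 CPM at 1 dpci.

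Of the other chemokines and chemokine receptors, 69 symbols were in the table and 44 were tested. At 1 dpci 7 of the 44 rose and 2 fell, where 8.52% of all genes rose and 2.37% fell, and their median log2 fold change was 0.26 against 0.07 for all genes. The largest fitted rise was that of ccl34a.4, from a mean of 0.952 to 25.3 CPM (5.21, SE 0.39, adjusted p = 1.1e-15), and ccl34b.8 rose by 3.5, both of a CC ligand group of fish. ccl34a.3 of the same group was called on 1 count over all uninjured, 72 over all 1 dpci and 1 over all 7 dpci hearts, with 12 groups at 0, so the size of its fitted fold is not given. The receptors cxcr1 (2.38), through which the Cxcl8 ligands act, and cxcr3.2 (1.87) rose as well, as did ccl35.1 (2.29). ccl33.3 (-2.1) and ccl20b (-1.33) fell. At 7 dpci 2 of the 44, ccl34a.4 (1.83, adjusted p = 0.049) and ccl35.1 (1.32, adjusted p = 0.0027), were above uninjured hearts, where 2.59% of all genes were. Between 1 and 7 dpci ccl34b.1 rose by 1.57, and 5 fell (2.66% and 4.78% of all genes): ccl34a.4 (-3.38), ccl34b.8 (-3.09), cxcr1 (-2.24), cxcr3.1 (-1.73) and, on the counts above, ccl34a.3. Of the 44 genes, 35 had at least 1 group at 0 counts, so that values for most of the family are less precise than those of the 4 well-read genes above. Many had no usable standard error in the comparisons over 7 strains, such as ccl38.1 at 1 dpci (SE 770). These genes could not be called, so the lack of a call does not show that they were unchanged. How many of all genes tested share this limit is not given. The counts among the 44 are therefore not directly comparable with the shares of all genes.

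For the 6 genes with at least 10 counts in at least 20 libraries, the genes most like them over the 61 libraries were found by Pearson's r of log2(CPM + 1). For cxcl18b they were si:dkey-23i12.7 (r = 0.807), BX908782.2, annotated as CD59 glycoprotein-like (0.769), and the matrix metallopeptidase mmp13a (0.763), which is also in the neutrophil list. For cxcr4b they were the cytokine signalling suppressor socs3a (0.697), the kinase pim1 (0.695) and the transcription factor cebpb (0.635). For cxcl12a they were the arginase arg2 (0.637), the complement gene c4b (0.636) and the sodium pump subunit atp1a1b (0.626). The closest genes were ca16b for cxcl12b (0.717), cdkn1ca for cxcl14 (0.623) and rasl11b for ackr3b (0.547). The 61 points share strain, stage and library scaling, and these values are descriptions only.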

How the data were processed

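Libraries were made with a 3′ kit (QuantSeq FWD) from single zebrafish ventricles. Per the labels and the study's methods, the authors used bcl2fastq 2.20.0, Trim Galore 0.6.4 and STAR 2.7.6a on GRCz11 and deposited raw gene counts without normalization. The deposited log2 values lie on a scale that is itself log-like, and were used only in 1 alternative (limma). Counts were tested with edgeR 4.0.16 (R 4.3.3, limma 3.58.1): genes reaching 1 CPM in any library, TMM scaling, 1 mean per strain and stage over 61 libraries, and p-values adjusted by Benjamini-Hochberg over 16890 genes. CPM are TMM-scaled, and the standard error is the log2 fold change over the root of F. Replicates are separate fish.

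The 10 genes, the lists and the rules were chosen with earlier results of these data known. Named beside the 10 genes were called relatives (at most 8 per contrast) and the 3 genes most like each well-read one. Alternatives were DESeq2 1.42.0, RUVg, size factors, filters, other strain sets, an additive fit, a replicate block and left-out fish. The 6 libraries with differing labels were kept. The comparison of 1 dpci with uninjured hearts was tested on simulated data with 200 changed genes. Genes with the lowest counts were not among the changed ones, and no other comparison was simulated.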

Additional observations from a re-analysis of the deposited data

Results flagged for a closer look

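The change of cxcr4b from uninjured to 1 dpci differed among AB, KCL, SAT, TL and WIK in edgeR's test of the difference itself (adjusted p = 0.021), which is why it is listed here. That difference passed in 22 of 29 fits without 1 fish (adjusted p = 0.0081 to 0.13). In WIK every 1 dpci heart (11.5, 21.8 and 33 CPM) was above every uninjured heart (2.18, 5.75 and 2.47 CPM), and in TL every 1 dpci heart (13.7, 14.2 and 22.4 CPM) was below every uninjured heart (35.7, 69 and 24.1 CPM). WIK fish 55 (11.5 CPM) and TL fish 41 (13.7 CPM) are among the 6 libraries whose labels differ. The neutrophil marker sum and the depth of the hearts were not entered in the test, and their part in it was not tested.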

How the results depend on the processing

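Of 124 counts of calls recomputed under another setting, 92 stayed within 1.5 times, 14 were lower and 18 higher, and of 294 values of single genes 259 kept direction and side of the thresholds. The additive fit, limma on the deposited values and the fits without AB uninjured fish 7 and WIK 7 dpci fish 60 together were chosen after seeing the data. The cause of the moves below was not tested. Except for the replicate block, the share of all genes called under each other setting is not given. Whether a higher or lower count, such as those with no filter, is particular to the genes described here can therefore not be told.

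For the stage comparisons (4, 2 and 2 genes called), the fit with the RUVg factor called 0, 1 and 1. The last was cxcr4b, which the fit of all groups did not call between 1 and 7 dpci. The count at 7 dpci against uninjured was 1 in the additive fit and 1 without those 2 fish. Between 1 and 7 dpci it was 1 in the additive fit and 1 without the 6 libraries whose labels differ. The gene in the additive fit was cxcl8a (-1.74, adjusted p = 0.014), so neither cxcl14 nor cxcl18b kept its call there. By adjusted p alone, with no 2-fold threshold, the count between 1 and 7 dpci was 4 with edgeR and 6 with limma. The differences among strains in uninjured hearts (5) fell to 3 with DESeq2's likelihood ratio test, 3 without the 2 fish and 2 (cxcl12a and cxcr4b) with the replicate block. The numbers do not pair the fish, since 33 pairs of the same number had a median r of 0.012 (-0.091 to 0.12). The block called 1397 of 13968 genes tested. At 1 dpci strains differed in 4 genes without the 2 fish and 5 with no filter, and at 7 dpci in 5 with no filter.

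Genes whose change differed among strains (1, 0 and 0) numbered 4, 4 and 3 with no filter. Over 7 strains, NA and TU included, they were 2 at 1 dpci and 3 at 7 dpci, and without mitochondrially encoded genes 2 at 7 dpci. Calls of 1 strain against the others (7, 3 and 5) were 11, 9 and 8 with no filter, 5 at 1 dpci without the 2 fish, and 3 at 7 dpci without the 6 libraries. Calls within strains (6, 5 and 4) were 18, 10 and 14 with no filter, and 3, 3 and 2 without the 6 libraries.

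With 1 fish left out, the stage calls ranged 2 to 5 at 1 dpci, 1 to 3 at 7 dpci and 1 to 3 between them. Strain differences ranged 3 to 6, 2 to 3 and 2 to 3, and differing changes 0 to 1, 0 to 1 and 0 to 0. Single-strain calls ranged 5 to 8, 2 to 4 and 4 to 6, and within-strain calls 5 to 7, 4 to 6 and 2 to 4.

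Directions turned mostly with the RUVg factor. At 1 dpci it gave -1.57 for cxcl18b, 0.54 for cxcl14, -1.51 for ccl19a.1, -0.79 for cxcr4b and -0.54 for ackr3b. At 7 dpci it gave -0.44 for cxcl18b and -0.02 for ackr3b, and between 1 and 7 dpci 0.59 for cxcl8a, 1.13 for cxcl18b, 0.92 for ccl19a.1 and 0.53 for ackr3b. Over AB, KCL, SAT, TL and WIK, ccl19a.1 was -0.25 at 1 dpci and cxcl18b -0.06 at 7 dpci. The additive fit gave -0.03 for ccl19a.1 at 1 dpci, -0.25 for cxcr4a at 7 dpci and 0.01 for ackr3b between 1 and 7 dpci. There ackr3b was 0.02 with a stricter filter and 0.05 without the 2 fish, and ccl19a.1 at 7 dpci was 0.32 without them. With 1 fish left out, values crossed 0 for ccl19a.1 (-0.43 to 0.91 at 1 dpci, -0.5 to 0.62 at 7 dpci and -0.71 to 0.34 between them), ackr3b (-0.04 to 0.25 at 1 dpci and -0.09 to 0.14 between 1 and 7 dpci), cxcl18b at 7 dpci (-0.23 to 0.64) and cxcr4a at 7 dpci (-0.29 to 0.63). Depth limits the genes with sums near 100 counts, cxcl8b.1, ccl19a.1 and cxcr4a, for which 3 counts are worth a median of 0.799 CPM.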
